A study of Rattus norvegicus with 15 samples.

Results

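Genes of smooth muscle, pericytes and myofibroblasts were measured in native and transplanted rat kidneys. The 10 members are Acta2, Tagln, Myh11, Cnn1 and Des, which encode contractile or cytoskeletal proteins, Rgs5, a pericyte gene, and Pdgfra, Pdgfrb, Pdgfa and Pdgfb, which encode receptors and ligands of the platelet-derived growth factor (PDGF) family. Every probe set whose only gene symbol is one of these names was taken, whatever its values. This gave 12 probe sets of 9 genes, out of 31042 probe sets tested. A probe set is a group of short probes on the array that together give 1 signal for a transcript. Pdgfb has no probe set under this rule, and 5 probe sets that carry Acta2 together with another gene were not counted. Myh11 is measured by 2 probe sets, Pdgfrb by 3 and each of the others by 1. The one with the highest mean log2 signal is called the leading probe set of its gene.

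The control group (ctr) consisted of 5 untreated native kidneys from the Lewis Brown Norway (LBN) strain. The syngeneic group (sTX) comprised 5 LBN kidneys placed in LBN recipients, and the allogeneic group (aTX) 5 LBN kidneys placed in Lewis (LEW) recipients, a strain pair that leads to acute rejection. The rats were male and 10 to 12 weeks old. Recipients had lost both of their own kidneys before grafting and received no immunosuppression, and grafts were removed on the fourth day. Donor and recipient strains are given here as in the series description, and the source names of the samples give them differently. Controls were the second kidneys of donors, so some of them may share an animal with a graft, and these pairs are not named in the labels. The kidneys labelled sTX 4 and 5 are called allogeneic in 1 label field and syngeneic in their titles, and they were kept in sTX.

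Smooth muscle cells form the media of renal arteries and arterioles and contract through alpha-smooth muscle actin (Acta2) and smooth muscle myosin (Myh11). Pericytes lie around peritubular capillaries, and mesangial cells hold the glomerular capillaries. Both respond to PDGF-B from endothelium through PDGF receptor beta. After kidney injury, pericytes and interstitial fibroblasts can turn into myofibroblasts, which make Acta2 and collagen. In rejecting grafts, arteries, capillaries and interstitium are all sites of inflammation. A change in a whole-kidney signal does not separate these cells, and fewer cells of a type and less RNA per cell cannot be told apart in bulk tissue.

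Signals are the intensities deposited by the authors on a linear scale. Array medians lay between 24.3 and 30, which gives a sense of how bright a signal is. Arrays of the same group correlated at 0.929 to 0.943 on log2 signals over all probe sets. The times in the instrument records of the arrays fell into 2 blocks, which were taken as wash runs. The records do not name the runs. Run 1 held all control kidneys and aTX 2, 3 and 4, and run 2 held all syngeneic kidneys and aTX 1 and 5, so no run held both ctr and sTX. RNA integrity also moved with the groups. The 3'/5' signal ratio of Gapdh was 1.17 ± 0.047 in ctr, 1.10 ± 0.024 in sTX and 1.04 ± 0.025 in aTX, and that of actin 1.74 ± 0.168, 1.51 ± 0.060 and 1.23 ± 0.058 (SD, n = 5; adjusted p = 0.0159 for each pair of groups, exact permutation test). Its part in the results below was not tested.

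Of the 9 measured genes, 6 were higher in syngeneic grafts than in native kidneys, and 6 were lower in allogeneic than in syngeneic grafts. Blocking on the wash run left 2 of these 6 genes higher in sTX than in ctr (Tagln and Acta2) and 4 of the 6 lower in aTX than in sTX. Acta2, Tagln, Des and Pdgfra were higher than ctr in both kinds of graft. Pdgfrb and Rgs5 rose in sTX, and in aTX Pdgfrb was not called and Rgs5 was lower than ctr. Against ctr, Myh11, the myosin heavy chain of differentiated smooth muscle, fell in aTX, while Acta2 and Tagln rose there. Against sTX, Myh11, Acta2 and Tagln were each lower in aTX, Acta2 only without the wash-run block.

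In aTX against ctr, 4 of the 12 probe sets were higher and 2 lower at an adjusted p below 0.05, beside 20.2% higher and 22.2% lower among all probe sets. By leading probe set, 4 of 9 genes were higher and 2 lower, beside 27.7% higher and 27.7% lower among all 14217 genes. In sTX against ctr, 7 probe sets were higher and 1 lower, beside 11.4% and 6.32% of all probe sets. These were 6 genes higher and 1 lower, beside 16.1% and 8.86% of all genes. In aTX against sTX, 2 probe sets were higher and 6 lower, beside 13.9% and 22.1% of all probe sets, and 2 genes were higher and 6 lower, beside 19.8% and 28.4% of all genes. The median log2 difference of the 9 genes was 0.19, 0.71 and -0.68 in these comparisons, and that of all genes -0.033, 0.080 and -0.13. Each pair of comparisons shares a group, so the 3 sets of calls are not independent. Over all probe sets the median log2 difference was -0.177 in aTX against sTX, and differences in that comparison are best read from there rather than from 0.

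**Figure D1:**
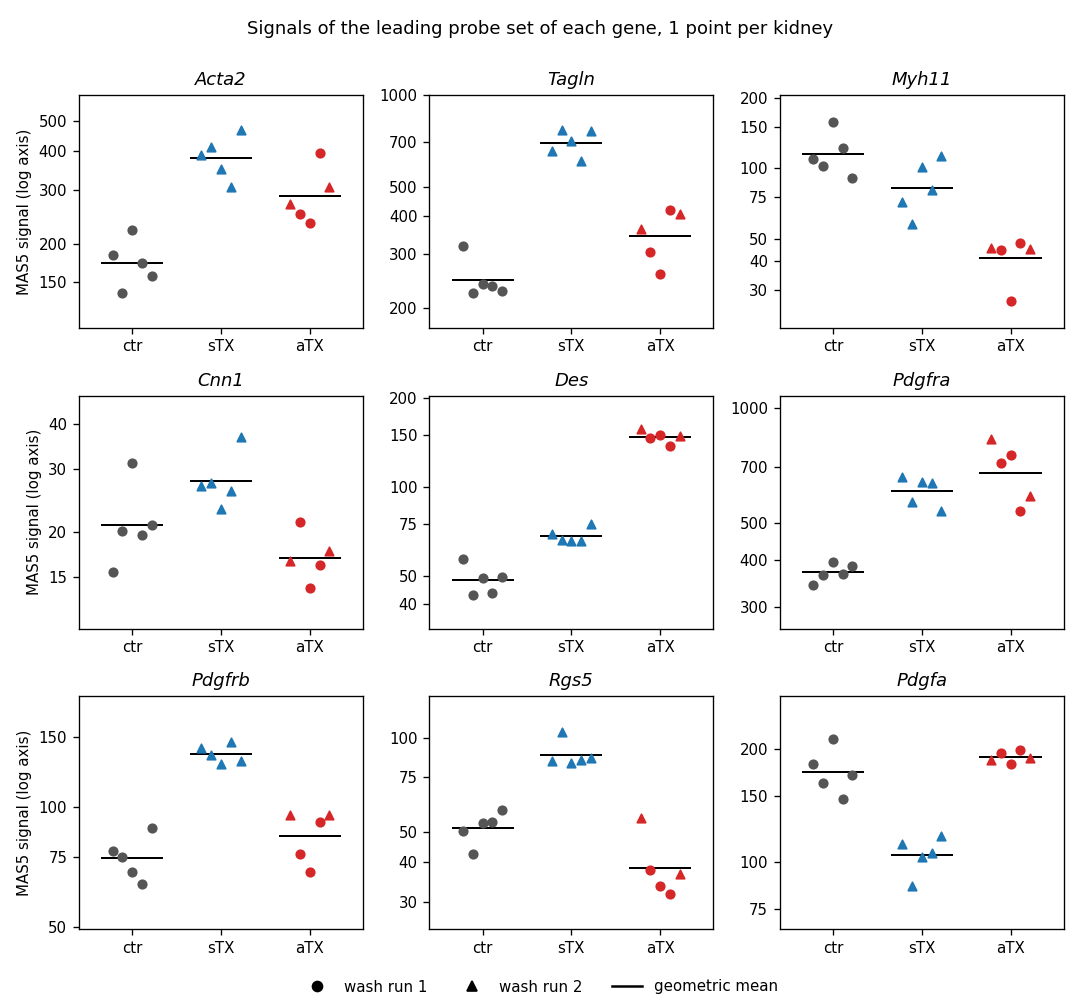
MAS5 signal of the leading probe set of each of the 9 genes in every kidney, on logarithmic axes that differ between panels. Points are kidneys, their shape is the wash run, and lines are geometric means of the groups. Tagln lies between 606.6 and 769.8 in sTX, above every other kidney, and Des between 137.8 and 156.4 in aTX, above every other kidney.

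Acta2 encodes alpha-smooth muscle actin (chr1:241159723-241172503, GRCr8). Its transcription depends on serum response factor (SRF), which binds the CArG box, a motif that begins with CC, ends with GG and has A or T between. The promoter is shown because Acta2 is the one measured gene of the set with such matches in the RefSeq promoter table, which has 7 of the 10 members. The bases are those just before the transcription start (chr1:241172504-241172753, minus strand, GRCr8), and capitals mark matches with 1 letter other than A or T inside, searched on both strands.
Acta2: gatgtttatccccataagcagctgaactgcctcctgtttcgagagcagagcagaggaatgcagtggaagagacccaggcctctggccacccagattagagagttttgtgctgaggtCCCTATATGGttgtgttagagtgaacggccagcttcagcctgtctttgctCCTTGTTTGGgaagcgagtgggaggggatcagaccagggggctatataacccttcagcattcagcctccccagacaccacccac
The first match lies at -134 to -125 from the start and the other at -84 to -75. Matches with at most 1 other letter occur in 9.42% of all 33469 promoters of the table, and matches with none in 1.64%. A match describes letters and does not show binding.

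Acta2 signals were 184.7, 139, 222, 173.1 and 157.2 in the 5 control kidneys. They were 388.7, 411.8, 349.6, 306.3 and 468.3 in sTX, and 269.1, 250.6, 233.2, 395.8 and 306.6 in aTX. All grafts of both kinds lay above every control, while the graft groups overlapped because aTX 4 reached the range of sTX. Acta2 was 2.20-fold higher in sTX than in ctr (log2 difference 1.14 ± 0.14 SE, adjusted p = 9.2e-06) and 1.65-fold higher in aTX than in ctr (0.72 ± 0.14, adjusted p = 0.000252). It was 1.33-fold lower in aTX than in sTX (adjusted p = 0.0262). This last difference, -0.41 on the log2 scale, did not pass without sTX 2 (adjusted p = 0.0586), sTX 5 (0.0815), aTX 1 (0.0532), aTX 2 (0.0705) or aTX 3 (0.0813), nor with the wash run as a block (0.134) or within run 2 alone (0.0528).

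Tagln encodes transgelin, also called SM22, an actin-binding protein of smooth muscle (chr8:55121647-55127121). Its signals were 318.2, 223.5, 239.1, 235.9 and 227 in ctr. They were 655.1, 769.8, 703.8, 606.6 and 764.4 in sTX and 361.7, 304.7, 259, 420.3 and 406 in aTX. The syngeneic kidneys stood apart from all others, and aTX overlapped with ctr through ctr 1 on one side and aTX 2 and 3 on the other. Of the 9 leading probe sets, that of Tagln rose most in sTX against ctr, 2.83-fold (log2 difference 1.50 ± 0.12 SE, adjusted p = 5.54e-08). It was 1.40-fold higher in aTX than in ctr (0.48 ± 0.12, adjusted p = 0.00283) and 2.02-fold lower in aTX than in sTX (adjusted p = 1.29e-06). Within run 1, with aTX 2, 3 and 4, the difference to ctr was 0.38 and did not pass (adjusted p = 0.0637).

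Cnn1 encodes calponin 1, an inhibitor of actomyosin ATPase in smooth muscle (chr8:28908437-28917099). Its signals were low, 15.5, 20.2, 31.2, 19.6 and 20.9 in ctr, 27, 27.4, 23.2, 26 and 37 in sTX and 16.6, 21.3, 14, 16.2 and 17.7 in aTX. All syngeneic kidneys lay above all allogeneic ones, and the control range covered most of both. The log2 difference to ctr was 0.41 in sTX (95% interval -0.037 to 0.85, adjusted p = 0.216) and -0.30 in aTX (95% interval -0.74 to 0.15, adjusted p = 0.295). Cnn1 was 1.63-fold lower in aTX than in sTX (adjusted p = 0.0124), a call that did not hold with the wash run as a block (0.0857), within run 2 (0.0663) or without sTX 4 and 5 (0.082).

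Myh11, the smooth muscle myosin heavy chain (chr10:1250554-1345681), moved against Acta2 and Tagln in aTX when compared with ctr. Compared with sTX, Tagln and Acta2 were lower in aTX as Myh11 was (log2 difference -1.02 and -0.41). On the leading probe set of Myh11 the controls gave 109.4, 101.9, 157.9, 122.3 and 91.1. Syngeneic kidneys gave 71.5, 57.5, 100.6, 80.5 and 112.4, and allogeneic ones 45.7, 44.7, 27, 48 and 45. Every allogeneic kidney lay below every other kidney, whereas sTX and ctr overlapped. Myh11 was 2.78-fold lower in aTX than in ctr (log2 difference -1.47 ± 0.19 SE, adjusted p = 1.68e-06) and 1.99-fold lower in aTX than in sTX (-0.99 ± 0.19, adjusted p = 0.000256). In sTX against ctr the difference was -0.48 (95% interval -0.87 to -0.083) and did not pass (adjusted p = 0.0906), but it passed without sTX 5 (-0.59, adjusted p = 0.0386) and after centring each array on its median (-0.67, adjusted p = 0.0145). The weaker probe set of Myh11 gave 1.2 to 11 in ctr, 3.3 to 8.7 in sTX and 1.9 to 8.6 in aTX, below the median of every array, and was not called (adjusted p = 0.68, 0.546 and 0.779).

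Des encodes desmin, the intermediate filament of muscle, which mesangial cells and injured podocytes also make (chr9:84299626-84307344). Its signals were 57, 43, 49.1, 43.6 and 49.6 in ctr, 69, 65.9, 65.6, 65.4 and 74.8 in sTX and 156.4, 145.8, 149.1, 137.8 and 148.6 in aTX. The 3 groups did not overlap, and desmin was higher in sTX than in ctr and higher again in aTX than in sTX. It was 3.06-fold higher in aTX than in ctr (log2 difference 1.61 ± 0.091 SE, adjusted p = 1.41e-11) and 2.17-fold higher than in sTX (1.12 ± 0.091, adjusted p = 7.04e-09). The rise from ctr to sTX was 1.41-fold (adjusted p = 0.000615). Blocking on the wash run gave 0.42 on the log2 scale, which did not pass (adjusted p = 0.206). Of 5 podocyte markers 4 were lower in aTX than in ctr and 1 higher, beside 27.7% of all genes each way. In sTX 3 were lower than in ctr and 0 higher, beside 8.86% and 16.1% of all genes. The wash-run block left 1 lower, beside 1.24% of all genes. Their summed signal was 894.3 to 1046 in ctr, 732.2 to 902.7 in sTX and 592.6 to 664.9 in aTX, and their part in the desmin signal was not tested.

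**Figure D2:**
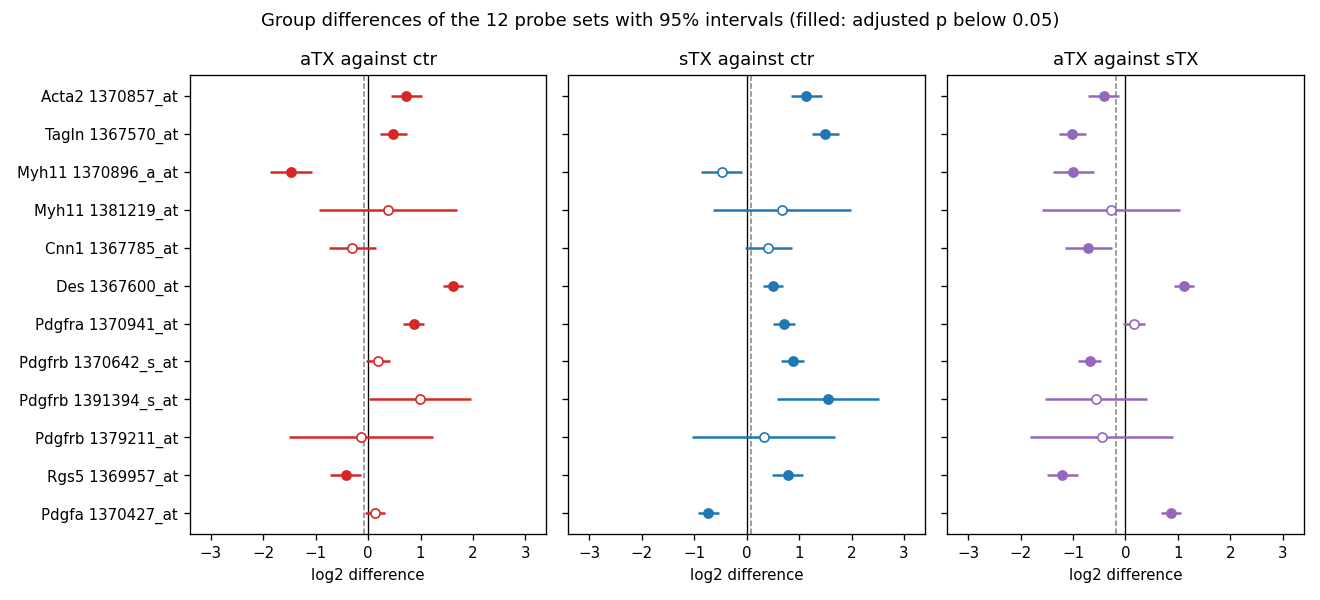
Log2 differences of all 12 probe sets in the 3 comparisons, with 95% intervals from the limma fit. Filled points have an adjusted p below 0.05, and dashed lines mark the median of all probe sets, which is -0.177 in aTX against sTX. Intervals are widest for the weak probe sets of Myh11 and Pdgfrb.

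Rgs5 and Pdgfrb were both higher in syngeneic grafts than in native kidneys, and both were lower in allogeneic than in syngeneic grafts. Rgs5 encodes a GTPase activator that damps signals of Gq- and Gi-coupled receptors in pericytes and arterial smooth muscle (chr13:84381077-84417875). Its signals were 50.5, 42.5, 53.3, 54 and 59 in ctr, 84.6, 104.4, 83.4, 85.3 and 86.1 in sTX and 55.5, 37.9, 33.7, 31.8 and 36.8 in aTX. All syngeneic kidneys lay above all others, and only aTX 1 of the allogeneic kidneys lay within the control range. Rgs5 was 1.72-fold higher in sTX than in ctr (log2 difference 0.78 ± 0.14 SE, adjusted p = 0.000514) and 2.31-fold lower in aTX than in sTX (-1.21 ± 0.14, adjusted p = 8.4e-07). The fall from ctr to aTX was 1.34-fold (-0.43 ± 0.14, adjusted p = 0.0182). It did not pass without aTX 4 (-0.36, adjusted p = 0.054), and within run 1 it was -0.58 (adjusted p = 0.0096). After blocking on the wash run, the difference in sTX was 0.38 and did not pass (adjusted p = 0.456).

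Pdgfrb encodes PDGF receptor beta of pericytes, mesangial cells and fibroblasts (chr18:56770348-56809228). On its leading probe set, signals were 77.8, 75.2, 68.7, 64.3 and 88.8 in ctr, 141, 135.8, 128.9, 146.2 and 130.9 in sTX and 95.5, 76.4, 69, 91.8 and 96 in aTX. The syngeneic kidneys again lay above all others, and aTX overlapped with ctr. Pdgfrb was 1.83-fold higher in sTX than in ctr (log2 difference 0.87 ± 0.11 SE, adjusted p = 7.87e-06) and 1.60-fold lower in aTX than in sTX (-0.68 ± 0.11, adjusted p = 3.1e-05). In aTX against ctr the difference was 0.19 (95% interval -0.033 to 0.41, adjusted p = 0.171), and it passed only without aTX 3 (0.27, adjusted p = 0.0479). The difference in sTX was 0.59 with the wash run as a block, which did not pass (adjusted p = 0.0775).

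The remaining probe sets of Pdgfrb were weak. The brighter of them, called the second here, gave 17.3, 10.8, 2, 10.1 and 19.7 in ctr, 27.1, 25.6, 19.2, 36 and 33 in sTX and 12, 16.3, 15.5, 30.5 and 24.4 in aTX, with ctr 3 far below the others and ctr 5 just above the lowest syngeneic kidney. It was 2.92-fold higher in sTX than in ctr (adjusted p = 0.0248), the same direction as the leading probe set, but not without sTX 4 (adjusted p = 0.0585) or sTX 5 (0.0518) or with the wash run as a block (0.322). Without ctr 3 the log2 difference was 0.99 instead of 1.55. In aTX against ctr it passed only without ctr 5 (1.25, adjusted p = 0.0399). The weakest had group means of 5.26 ± 5.67, 5.10 ± 2.22 and 5.66 ± 7.52 (ctr, sTX, aTX; SD, n = 5) and was not called in any comparison (adjusted p = 0.646 to 0.898). Leaving out aTX 4 moved its fold in aTX against ctr by a factor of 1.53.

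Pdgfra encodes PDGF receptor alpha, a receptor of interstitial fibroblasts that binds PDGF-A (chr14:33360027-33408604). Its signals were 342.8, 364, 395.2, 367.8 and 384.3 in ctr, 659.5, 567.8, 638.6, 634.2 and 537.6 in sTX and 829.5, 715.6, 754.2, 535.9 and 589.1 in aTX. Every graft lay above every control, and both kinds of graft overlapped. Pdgfra was 1.64-fold higher in sTX (log2 difference 0.71 ± 0.099 SE, adjusted p = 3.4e-05) and 1.83-fold higher in aTX (0.87 ± 0.099, adjusted p = 3.39e-07) than in ctr. In contrast to Pdgfrb, the allogeneic and syngeneic kidneys differed by 0.16 (95% interval -0.048 to 0.37, adjusted p = 0.238). This difference was called without aTX 4 (0.24, adjusted p = 0.0431) and after median centring (0.28, adjusted p = 0.043). The difference in sTX did not pass after blocking on the wash run (0.63, adjusted p = 0.0598).

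Pdgfa, the only PDGF ligand gene measured among the members, moved against the receptors in syngeneic grafts. It encodes the A chain of PDGF, which acts through PDGF receptor alpha (chr12:20759366-20780337). Its signals were 182.7, 162.9, 212.5, 147 and 170.8 in ctr, 112, 86.3, 103.2, 105.9 and 117.6 in sTX and 187.3, 194.9, 182.9, 198.9 and 189.6 in aTX. All syngeneic kidneys lay below all others, and the allogeneic kidneys fell inside the control range and close together. Pdgfa was 1.66-fold lower in sTX than in ctr (log2 difference -0.74 ± 0.095 SE, adjusted p = 1.54e-05) and 1.83-fold higher in aTX than in sTX (0.87 ± 0.095, adjusted p = 3.78e-07). The difference between aTX and ctr was 0.13 (95% interval -0.066 to 0.33, adjusted p = 0.297). The B chain gene Pdgfb (chr7:113419882-113438343) was not analysed here for its level, but its promoter is in the RefSeq table and also holds a CArG match with 1 other letter, at -140 to -131. It is shown for comparison with Acta2 (chr7:113438454-113438503, minus strand, GRCr8), with the match in capitals.
Pdgfb: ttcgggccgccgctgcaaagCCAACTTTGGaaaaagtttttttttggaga
The other 5 members in the table, Cnn1, Des, Pdgfra, Rgs5 and Pdgfa, have no such match in 250 bases before and 50 after the start.

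With the wash run as a block, sTX against ctr rests on the allogeneic kidneys of both runs, because no run held both groups. There 2 of the 12 probe sets were higher, Tagln (log2 difference 1.25, adjusted p = 0.00187) and Acta2 (1.13, adjusted p = 0.0182), and 1 was lower, Pdgfa (-0.71, adjusted p = 0.0277). In that fit 2.3% of all probe sets had a higher signal in sTX and 0.821% a lower one. By leading probe set these shares were 3.69% and 1.24% of all genes. The directions of the 9 leading probe sets were those of the fit without the block. The calls of Des, Pdgfra, Pdgfrb and Rgs5 were not kept. In aTX against ctr the block kept the 4 higher and 2 lower probe sets, beside 18% higher and 20.4% lower among all probe sets and 25.2% and 26% among all genes. In aTX against sTX it lost Acta2 and Cnn1, which left 2 higher and 4 lower, beside 11.4% and 16.3% of all probe sets and 16.8% and 21.4% of all genes.

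**Figure D3:**
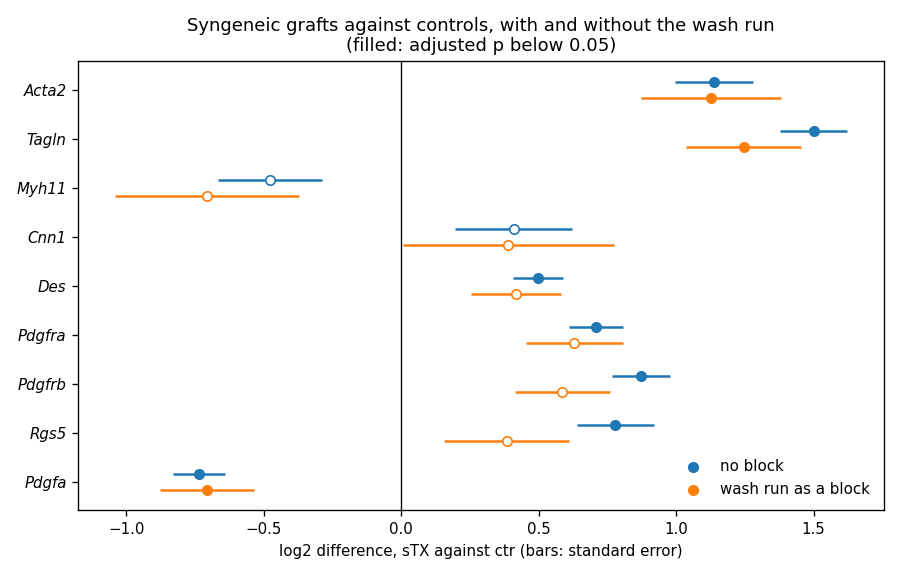
Log2 differences between sTX and ctr for the leading probe set of each gene, from the fits with no block and with a block for the wash run. Bars are standard errors and filled points have an adjusted p below 0.05. Tagln, Acta2 and Pdgfa are filled in both fits, and the difference of Rgs5 shrinks from 0.78 to 0.38.

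The order of the kidneys within a group was partly shared by the contractile genes. Among Acta2, Tagln, Myh11, Cnn1 and Des, ctr 3 was the highest control kidney for 3 genes, sTX 5 the highest syngeneic kidney for 4 and aTX 4 the highest allogeneic kidney for 3. In contrast, aTX 3 was the lowest allogeneic kidney for 4 of these 5 genes. Other extremes conflicted, as aTX 4 was the lowest allogeneic kidney for Des. The kidney ctr 1 was the highest control for Tagln and Des and the lowest for Cnn1, and sTX 2 the highest syngeneic kidney for Tagln and the lowest for Myh11. The SD of log2 signals within a group was smallest for Pdgfa and Des in aTX, 0.048 and 0.066, and largest for Myh11 in sTX, 0.39, and Cnn1 in ctr, 0.36. For Pdgfra it was 0.079 in ctr and 0.26 in aTX. These are descriptions of 5 kidneys per group, and no test of the spread was made.

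**Figure D4:**
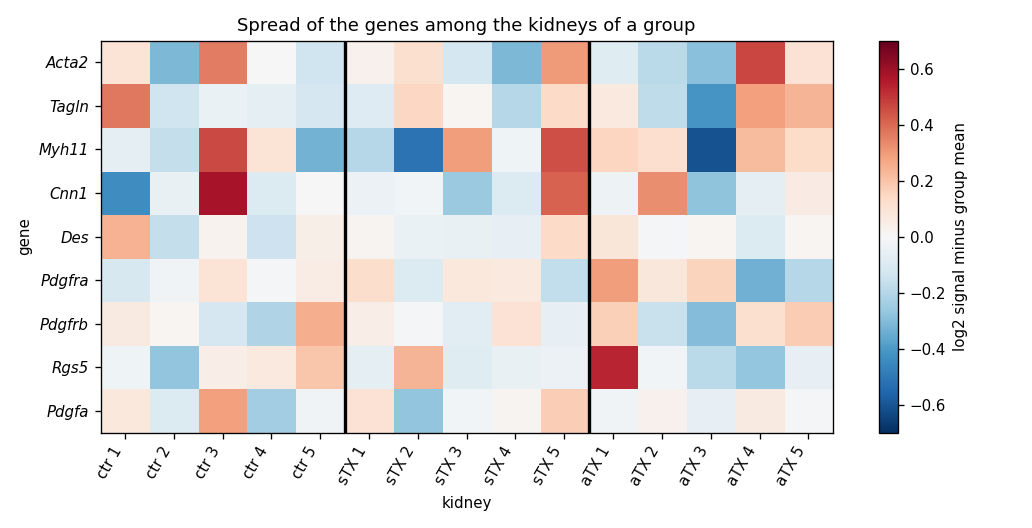
Log2 signal of each gene's leading probe set in each kidney minus the mean of its group, for 9 genes and 15 kidneys. Red cells lie above and blue cells below the group mean. The kidney sTX 5 is above the mean of sTX for all 5 contractile genes and aTX 3 below that of aTX for Acta2, Tagln, Myh11 and Cnn1.

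A wider list of contractile and cytoskeletal genes was set beside the members. It also holds Vim, Cnn2, Rhoa and integrin chains, so its counts are not particular to smooth muscle. Of 32 measured contractile proteins and regulators, 17 were higher and 2 lower in sTX than in ctr (median log2 difference 0.58), beside 16.1% and 8.86% of all genes. In aTX against ctr 14 were higher and 5 lower (0.25), beside 27.7% of all genes each way. In aTX against sTX, 9 were higher and 14 lower (-0.30), beside 19.8% and 28.4% of all genes. Blocking on the wash run left 8 higher and 0 lower in sTX against ctr (3.69% and 1.24% of all genes), and 8 higher and 8 lower in aTX against sTX (16.8% and 21.4%). Beta-tropomyosin Tpm2, a partner of smooth muscle actin, was 131 ± 30.1 in ctr, 302 ± 26 in sTX and 220 ± 49.8 in aTX (2.35-fold and 1.68-fold higher than ctr, adjusted p = 7.77e-06 and 0.000355). The collagen-binding integrin chain Itga1 was 2.12-fold higher in sTX (adjusted p = 0.000193). Neither Tpm2 nor Itga1 was called in sTX against ctr after blocking on the wash run (adjusted p = 0.0748 and 0.148). Smoothelin (Smtn), a gene of contractile smooth muscle cells, was 142 ± 24.7, 151 ± 13.4 and 50.1 ± 12.4, 2.89-fold lower in aTX than in ctr (adjusted p = 6.73e-08), the direction of Myh11. Csrp2, Ppp1r14a, Cav1 and Itga8 were the other genes of the list lower in aTX than in ctr. Myl9, Cald1 and Mylk were not called in that comparison (adjusted p = 0.772, 0.153 and 0.106), nor were the weaker Actg2 and Lmod1 (0.329 and 0.178). In sTX against ctr, Smtn, Ppp1r14a, Synpo2, Actg2, Lmod1 and Kcnmb1 were not called (adjusted p = 0.748, 0.223, 0.116, 0.0531, 0.732 and 0.0661). Of these, Lmod1 and Kcnmb1 were weak, with group means of 5.22 to 14.4. Myl9, Cald1 and Mylk were higher in sTX (adjusted p = 7.15e-06, 4.87e-06 and 0.000226). The block ended these 3 calls (adjusted p = 0.0756, 0.0573 and 0.352).

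Among the other members of that list that rose in aTX were Vim, Cnn2 and Itga5, and the cells that made them were not tested. Vimentin (Vim), the intermediate filament of mesenchymal cells and leukocytes, was 400 ± 60.3 in ctr, 1175 ± 254 in sTX and 2529 ± 197 in aTX (6.37-fold higher in aTX than in ctr, adjusted p = 1.29e-12). Calponin 2 (Cnn2), a broadly made relative of Cnn1, rose 3.47-fold (adjusted p = 7.23e-13), and the fibronectin receptor chain Itga5 rose 2.14-fold (adjusted p = 8.64e-06). Of 15 measured markers of skeletal and cardiac muscle, 0 were called in sTX against ctr, beside 16.1% higher and 8.86% lower among all genes. In aTX 2 were lower than in ctr and 0 higher, beside 27.7% of all genes each way. The summed signal was 1564 to 2114 in ctr, 1633 to 2197 in sTX and 1029 to 1336 in aTX. Most of it came from Myh1, whose leading probe set is of the type x, which can pick up other transcripts, while cardiac Actn2 and myoglobin (Mb) had mean signals of 1.54 to 2.92.

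Regulators of contractile genes were set beside these, on a list named for SRF and myocardin. This list also holds Notch3, Heyl, Hey1 and Jag1 of the Notch pathway, and Gata6 and Hic1. Of its 16 measured genes, 3 were higher and 1 lower in sTX than in ctr, beside 16.1% and 8.86% of all genes. The wash-run block left 1 higher and 0 lower, beside 3.69% and 1.24%. In aTX 2 were higher and 4 lower than in ctr, beside 27.7% of all genes each way. Against sTX, 2 were higher and 6 lower in aTX, beside 19.8% and 28.4% of all genes. With the block these were 1 and 2, beside 16.8% and 21.4%. The genes higher in sTX included Hic1, and those lower in aTX than in ctr included Heyl. Srf itself was 136 ± 8.61 in ctr, 110 ± 14.5 in sTX and 141 ± 25.7 in aTX and was not called against ctr (adjusted p = 0.057 and 0.804). Myocardin (Myocd), the SRF cofactor of smooth muscle, had mean signals of 5.8 to 7.96, below the array medians, and could not be judged. The LIM-domain cofactor Fhl2 rose 1.87-fold in sTX (adjusted p = 2.82e-05) and was 1.06-fold lower in aTX (adjusted p = 0.658), and Fhl1 fell 1.89-fold in aTX (adjusted p = 4.45e-09). Mrtfa, an actin-sensing cofactor of SRF, rose 1.38-fold in aTX (adjusted p = 0.00151), and the SRF partner Elk1 fell 1.69-fold in aTX (adjusted p = 5.49e-05). Elk1 was 1.38-fold lower in sTX (adjusted p = 0.0155). The block ended the calls of Fhl2 and Elk1 in sTX (adjusted p = 0.103 and 0.0841). The Srf promoter is shown because it holds 2 CArG boxes with no other letter, in capitals (chr9:21923975-21924044, plus strand, GRCr8), at -81 to -72 and -61 to -52.
Srf: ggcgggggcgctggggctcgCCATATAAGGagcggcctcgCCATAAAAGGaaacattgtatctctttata

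A wider list of pericyte and vascular wall genes was set beside Rgs5 and Pdgfrb. Of 22 measured, 9 were lower and 3 higher in aTX than in ctr (median log2 difference -0.49), beside 27.7% of all genes each way. Among the lower, Higd1b, Cox4i2, Rgs4 and Vtn were weak, with means of 14.6 to 21.6 in ctr and 3.24 to 9.62 in aTX. The other 10 were not called, among them Cspg4, Notch3, Kcnj8, Mcam and Cd248 (adjusted p = 0.268, 0.128, 0.91, 0.134 and 0.0576). Cd248 was called lower with the wash run as a block (adjusted p = 0.0298). In sTX 5 were higher and 2 lower (0.28), near the 16.1% and 8.86% of all genes. In aTX against sTX, 13 were lower and 2 higher (-0.71), beside 28.4% and 19.8% of all genes. Abcc9, the SUR2 subunit of a vascular potassium channel, was 107 ± 15.2 in ctr, 133 ± 23.5 in sTX and 39.7 ± 7.28 in aTX (2.70-fold lower in aTX than in ctr, adjusted p = 3.74e-08). The nitric oxide receptor subunits Gucy1a1 and Gucy1b1 rose 2.09-fold and 2.29-fold in sTX (adjusted p = 8.76e-06 and 0.000262). Anpep, which proximal tubules also make in quantity, fell 2.19-fold in aTX (adjusted p = 1.55e-09). The relatives Rgs16 and Rgs2, which lymphocytes and myeloid cells also make, rose in aTX, Rgs16 from 13.1 ± 3.52 to 142 ± 6.41 (11.1-fold, adjusted p = 7.78e-12) and Rgs2 2.55-fold (adjusted p = 3.28e-07). Rgs2 was lower in sTX than in ctr (1.79-fold, adjusted p = 0.000573). After blocking on the wash run, 1 of the 22 genes, Gucy1a1, was higher in sTX against ctr and 0 were lower, beside 3.69% and 1.24% of all genes. The sTX calls of Gucy1b1 and Rgs2 were lost (adjusted p = 0.16 and 0.115). The block left 9 lower and 2 higher in aTX against sTX, beside 21.4% and 16.8% of all genes.

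Markers of other kidney and blood cells were read in the same arrays. The shares over all genes were 27.7% higher and 27.7% lower in aTX against ctr, and 16.1% and 8.86% in sTX against ctr. Of 10 endothelial markers 9 were lower in aTX than in ctr and 0 higher, led by von Willebrand factor (Vwf, 3.78-fold, adjusted p = 8.87e-09), the capillary protein Plvap, the sialomucin Emcn and the angiopoietin receptor Tek (2.46-fold, 2.44-fold and 2.44-fold, adjusted p = 9.82e-08, 8.57e-11 and 1.14e-10). Their summed signal was 3014 to 3698 in ctr, 2678 to 3126 in sTX and 1461 to 1567 in aTX. Of 9 mesangial markers 6 were lower and 2 higher in aTX (Ptn 1.53-fold and Art3 1.58-fold, adjusted p = 0.000324 and 0.000134), with sums of 1905 to 2436, 2132 to 2506 and 1147 to 1489. Plvap is on both lists, Itga8 is also on the contractile list and Agtr1a also on the pericyte list, so the counts of these lists are not separate. Plvap, Agtr1a and Nt5e gave most of the mesangial sum in ctr, with means of 732, 482 and 473 beside a summed mean of 2257.5. That sum and the calls of these genes are therefore not particular to mesangial cells, and the cells that made them were not tested. Sfrp2 and Nt5e fell 3.08-fold and 2.73-fold (adjusted p = 3.33e-07 and 9.04e-12). Of 10 tubule markers, which also check that the tissue is kidney, 10 were lower in aTX, with sums of 19167 to 21831 in ctr, 17626 to 21056 in sTX and 8403 to 10687 in aTX. All 10 macrophage markers and all 11 T-cell markers were higher in aTX than in ctr. Macrophage sums were 1865 to 2394 in ctr, 3107 to 4529 in sTX and 8450 to 10891 in aTX, and T-cell sums 159.7 to 260.5, 258.2 to 417.2 and 2342 to 3738. Of 7 urothelium markers 3 were lower in aTX than in ctr, and in sTX 3 were higher, Upk3a 2.65-fold, Krt5 2.57-fold and Upk1b 2.14-fold (adjusted p = 8.69e-06, 0.00746 and 0.00403), and 1 was lower. The wash-run block left 1 of these higher, Upk3a, beside 3.69% of all genes. Their sums, mostly Krt7 signal, were 889 to 1004, 911.8 to 1069 and 402.8 to 491.3. Of 7 adipocyte markers 1 was higher and 3 were lower, with sums of 308.9 to 780.6, 296.2 to 383.9 and 226.3 to 279.3. The part of these markers in the results of the member genes was not tested.

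Of 29 measured fibroblast and myofibroblast genes, 22 were higher and 1 lower in sTX than in ctr (median log2 difference 1.36), beside 16.1% and 8.86% of all genes. In aTX 19 were higher and 3 lower than in ctr (0.83), beside 27.7% of all genes each way. In aTX against sTX, 3 were higher and 14 lower (-0.55), beside 19.8% and 28.4% of all genes. After blocking on the wash run, 16 were higher and 1 lower in sTX against ctr (3.69% and 1.24% of all genes), and 3 higher and 6 lower in aTX against sTX (median -0.31). Ccn2, a growth factor of the matrix and the gene that was lower in sTX, fell 3.21-fold there and 3.80-fold in aTX (adjusted p = 6.79e-06 and 1.18e-07), and Fbln5 and Thy1 were the other genes lower in aTX. Collagen Col1a1 went from 160.5 ± 34.5 in ctr to 988 ± 117 in sTX and 655 ± 256 in aTX (6.22-fold and 3.95-fold, adjusted p = 3.7e-09 and 9.82e-09). The keratan sulfate proteoglycan lumican (Lum) rose 6.36-fold and 5.19-fold (adjusted p = 5.83e-08 and 1.8e-08). Cthrc1, a collagen-associated protein of activated fibroblasts, rose 10.0-fold in sTX (adjusted p = 4.13e-06, or 0.0455 with the block). Its signal was weak in ctr, 9.9 ± 4.66, and 89.9 ± 25.1 in sTX. Tenascin C (Tnc), an injury matrix protein, went the other way between grafts, 31.3 ± 2.8 in ctr, 118 ± 25.6 in sTX and 219 ± 15.1 in aTX. Fbln1, a matrix protein of basement membranes and elastic fibres, rose 4.28-fold in aTX (adjusted p = 5.8e-08).

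**Figure D5:**
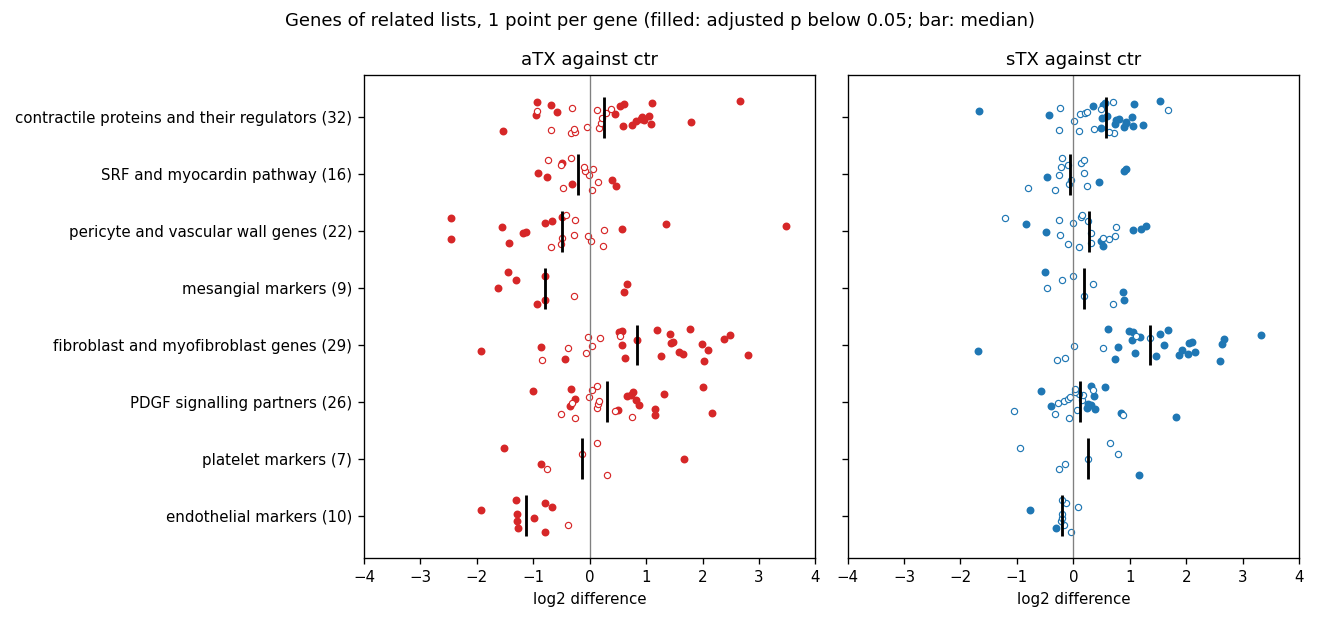
Log2 differences of the genes of 8 related lists in aTX against ctr and sTX against ctr, with the number of measured genes in parentheses. Points are genes by leading probe set, filled at an adjusted p below 0.05, and bars are medians. The fibroblast list has medians of 0.83 in aTX and 1.36 in sTX, and the pericyte list -0.49 and 0.28.

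Of 26 measured PDGF signalling partners, 11 were higher and 4 lower in aTX than in ctr, beside 27.7% of all genes each way, and 11 were not called. In sTX 9 were higher and 2 lower, beside 16.1% and 8.86% of all genes. Blocking on the wash run left 1 higher and 1 lower, beside 3.69% and 1.24% of all genes. Csf1r, the receptor of macrophage growth factor and a relative of the PDGF receptors, is also on the macrophage list and rose 4.47-fold in aTX (adjusted p = 2.81e-14) and 1.80-fold in sTX (adjusted p = 1.99e-07). Lrp1, a co-receptor of PDGF receptor beta, rose 4.03-fold in aTX (adjusted p = 6.83e-12), Stat3 rose 2.48-fold (adjusted p = 2.36e-09) and the adaptor Shc1 2.22-fold (adjusted p = 5.77e-09). Furin, a protease that cleaves PDGF precursors, was 343 ± 65.7 in ctr, 228 ± 26.7 in sTX and 170.1 ± 14.1 in aTX, and its call in sTX was lost with the block (adjusted p = 0.133). The list also holds the ligand genes Pdgfc and Pdgfd. Pdgfd was weak, with means of 9.9 in ctr and 28.5 in sTX (3.53-fold higher, adjusted p = 0.00296, or 0.238 with the block). Pdgfc was not called in sTX (adjusted p = 0.833), and neither was called in aTX against ctr (adjusted p = 0.252 for Pdgfc and 0.155 for Pdgfd). Among 7 platelet markers, a source of PDGF, Pf4 was 2.24-fold higher in sTX (adjusted p = 0.00015, or 0.205 with the block) and Itga2b fell 1.81-fold in aTX (adjusted p = 1.91e-05), and the sums were 161.3 to 198.4, 207.7 to 256.2 and 149.1 to 203.3. In all, 1 platelet marker was higher and 2 were lower in aTX than in ctr, beside 27.7% of all genes each way. In sTX 1 was higher and 0 lower, beside 16.1% and 8.86% of all genes. The block left 1 higher and 1 lower in aTX, beside 25.2% and 26%, and 0 called in sTX, beside 3.69% and 1.24%.

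The genes whose profiles over the 15 kidneys lay closest to each member were found among 8242 genes of adequate signal by the root mean square difference of centred log2 signals. This is a description without a test. For Acta2 they were Tpm2 (0.18), Tgfb1i1 (0.24) and Srxn1 (0.26), and for Tagln Tpm2 (0.26), Htra3 (0.29) and Pf4 (0.29). Myh11 lay closest to Fam234b (0.21), Sort1 (0.22) and Sema6a (0.23), and Cnn1 to Wfdc2, Slc22a7 and Stard8 (each 0.20). Des had the closest neighbour of all, Cnot9 (0.092), followed by Tsr1 and Mvp (each 0.13). Pdgfra lay closest to Cdk4 (0.12), Cpne8 (0.13) and Septin2 (0.14), and Pdgfrb to Ehd2, Sfrp1 and the actin-binding Cald1 (0.15, 0.15 and 0.16). Rgs5 lay closest to Thy1 (0.14), Aldh1a2 (0.19) and Lhfpl6 (0.20), and Pdgfa to Fmnl1 (0.17), Ccnl1 (0.18) and Rab20 (0.19).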

How the data were processed

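RNA of 15 rat kidneys was hybridized to Affymetrix Rat Genome 230 2.0 arrays, 1 array per kidney. The deposited values are MAS5 signal intensities of 31099 probe sets, which the authors scaled globally (mean after trimming 2% at each end, 100.03 to 100.04). Wash runs were inferred from the time under the header Hybridize Date in the deposited instrument records, with a new run at a gap between times. Without 57 control probe sets, log2 signals (floor 0.05, which replaced 54 values) were fitted in R 4.3.3 with limma 3.58.1, using 1 fit for the 3 groups, an intensity trend and Benjamini-Hochberg adjustment across the 31042 remaining probe sets. Folds are ratios of geometric means, and levels are means ± SD (n = 5 kidneys). Precision is limited by 5 arrays per group.

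The platform annotation gave 20826 probe sets 1 symbol, 436 several and 9780 none here. Members and gene lists were chosen with earlier results of these data known. Named were all members, the 3 closest profiles of each, and from each list up to 4 (aTX against ctr) or 3 (sTX against ctr) called genes with the largest change, if the higher group had a geometric mean of 50 or more. Some genes that met these criteria were not printed. Srf, Myocd, Actn2, Mb, Pdgfc, Pdgfd, Myl9, Mylk, Actg2, Lmod1, Csrp2, Ppp1r14a, Cav1, Itga8 and Agtr1a were named after their values were seen. So were Ccn2, Fbln5, Art3, Krt5, Synpo2, Kcnmb1, Higd1b, Cox4i2, Rgs4, Vtn, Cspg4, Kcnj8, Mcam and Cd248. The same holds for Notch3, Heyl, Hey1, Jag1 and Gata6. Alternatives were median centring, quantile normalization, an offset of 16, a floor of 1, a filter (signal of at least 50 on 5 arrays), no trend, 2 groups per fit, the methods' t-test, blocks for wash run and replicate number, within-run values, and leaving out arrays. Counts of the gene lists under the wash-run block were added after seeing the data. RefSeq positions and promoters are of GRCr8. The fit was tested on simulated data. Python 3.11.15, pandas 2.3.3, numpy 2.4.6, scipy 1.17.1 and matplotlib 3.10.9 were used.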

Additional observations from a re-analysis of the deposited data

Results flagged for a closer look

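Single kidneys stood apart in 6 of 36 groups of 5, by the gap to the nearest kidney as a share of the range of the group (critical value 0.71), where chance gives about 1 in 20. They were ctr 1 for Tagln (0.809, high), aTX 3 for Myh11 on its leading probe set (0.876, low) and sTX 2 for Rgs5 (0.858, high). On the weakest Pdgfrb probe set they were ctr 3 (0.88), sTX 1 (0.712) and aTX 4 (0.881).

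The genes Cnn1, Rgs5 and Pdgfa lay on opposite sides of ctr in the graft groups, and the difference between these groups passed the test. The log2 difference of aTX against sTX was -0.71 for Cnn1 (adjusted p = 0.0124), -1.21 for Rgs5 (adjusted p = 8.4e-07) and 0.87 for Pdgfa (adjusted p = 3.78e-07). Cnn1 passed against ctr in neither group, Rgs5 in both and Pdgfa in sTX.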

How the results depend on the processing

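Most calls held under the alternatives run. The number of member probe sets higher in aTX against ctr was 2 instead of 4 with the methods' t-test at its own threshold, and the number lower was 1 instead of 2 with that t-test at its threshold and after Benjamini-Hochberg, and 1 to 2 when each kidney was left out in turn. In sTX against ctr the number higher was 2 instead of 7 with the wash run as a block. The number lower was 2 instead of 1 after median centring, and 1 to 2 when each kidney was left out. In aTX against sTX the number lower was 3 instead of 6 with the methods' t-test at its threshold. The sign changed for 2 weak probe sets that were not called, that of Myh11 in aTX against sTX (0.018 with quantile normalization, -0.53 to 0.011 without single kidneys) and the weakest of Pdgfrb in aTX against ctr (0.0056 with an offset, 0.34 within run 1 and with that block, -0.75 to 0.36 without single kidneys). The cause was not tested. A replicate number as a block gave the counts of the fit without it, 4 and 2, 7 and 1, and 2 and 6 (higher and lower), and 0 of 15 same-numbered pairs correlated above 0.1, so the numbers were not taken as pairing. Cnn1 in aTX against sTX was also lost with quantile normalization (adjusted p = 0.0665), and Acta2 after median centring (0.102) and without an intensity trend (0.0701). The second probe set of Pdgfrb in sTX against ctr was lost without a trend (0.0592), and Rgs5 in aTX against ctr with the t-test after Benjamini-Hochberg (0.0702). The filter on low signals left 8 of the 12 probe sets among 13511. No value within 1 run exists for sTX against ctr.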
